A study of Mus musculus with 4 samples.

Results

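Acyl-CoA thioesterases hydrolyse the thioester bond of an acyl-CoA, which releases a free fatty acid and coenzyme A. The family described here comprises 8 genes, Acot1, Acot2, Acot3, Acot4, Acot7, Acot8, Acot12 and Acot13, which were selected by symbol from the 35739 genes with a deposited abundance in mouse liver. Of the 8 genes, 7 had a mean of at least 1 TPM (a transcript abundance corrected for transcript length and scaled to a common library total) over the 4 libraries and were tested, and Acot2 was below that level. No thioesterase gene passed an adjusted p of 0.05 between genotypes. Acot3 was lower in both Usp21 KO livers than in both WT livers. Acot12 was slightly higher in both KO livers, but its genotypes overlapped after scaling to equal upper quartiles. Acot1 varied more between mice of 1 genotype than between the genotypes.

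Thioesterases oppose the acyl-CoA synthetases, so the balance of both enzyme groups sets how much of a fatty acid is held as its CoA ester. The type I enzymes (Acot1 to Acot6 in the mouse) have an alpha/beta hydrolase fold and are encoded by a cluster of duplicated genes. The type II enzymes (here Acot7, Acot8, Acot12 and Acot13) have a hotdog fold and lie on separate chromosomes or far apart. In liver, several members are known targets of PPAR-alpha, the nuclear receptor that switches on fatty acid oxidation during fasting.

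Liver RNA was sequenced from WT littermates (replicates 2 and 3) and from Usp21 KO mice (replicates 1 and 3). Each library was taken to come from 1 mouse, which the labels do not state. All mice were 10 to 11 weeks old and were kept on a normal diet, and the litters came from B6 mice mated with KO carriers of a B6 × 129/Sv mixed background. The KO allele is a constitutive deletion of exons 3 and 4 of Usp21, a deubiquitylase, so every tissue carries it. With 2 mice per genotype, an exact permutation test of a single gene cannot go below p = 0.333, and all p-values below come from limma fitted across 9581 genes, two-sided, with Benjamini-Hochberg adjustment.

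In total, 12876 to 13620 genes had a TPM above 0 per library. Usp21 was at 4.07 and 6.30 TPM in WT and at 1.64 and 2.93 TPM in KO liver (log2 fold change -0.92, SE 0.33, limma adjusted p = 0.464), a value that also covers the exons outside the deletion. All 10 hepatocyte markers were detected, with Alb between 27480 and 43180 TPM. Of 19 tested genes that follow time of day or feeding, 16 did not overlap between genotypes, compared with 45.3% of all tested genes, and 1 (Dbp) passed the adjusted threshold. Dbp, a clock output factor, was at 56.8 and 41.3 TPM in WT and at 4.73 and 4.97 TPM in KO liver, and Bmal1 (Arntl), a core clock activator, was at 0.241 and 0.243 TPM in WT and at 5.89 and 4.05 TPM in KO liver. The summed level of 6 cholangiocyte markers was 14.6 and 15.9 TPM in WT against 37.99 and 24.5 TPM in KO liver. Spp1 alone made up 13.2, 12.7, 33.4 and 20.7 TPM of these sums. Krt19 was also higher in both KO livers, with 0.196 and 0.263 TPM in WT against 0.998 and 1.28 TPM in KO. Epcam, Sox9, Krt7 and Cftr overlapped between genotypes. The sum of 7 stellate cell markers was 70.2 and 52.4 TPM in WT against 98.2 and 76.0 TPM in KO liver. Most of this sum came from Dcn, with 42.6, 34.1, 62.8 and 48.35 TPM in the same order of libraries. Reln and Col1a2 were, like Dcn, higher in both KO livers. Colec11, Col1a1, Lrat and Des overlapped between genotypes, so the sum does not describe all of these markers. Summed markers of Kupffer cells (94.5 to 242.8 TPM), sinusoidal endothelial cells (40.04 to 61.5 TPM) and erythroid cells (719 to 911 TPM) overlapped between genotypes, and 4 of 6 adipocyte markers, Plin1 included, were listed at 0 in all libraries. The part of these genes and markers in the results below was not tested. In whole liver, fewer cells of a type and less RNA per cell cannot be told apart.

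The levels of the 8 genes spanned a wide range in every library. Acot13 was the most abundant, with a mean of 78.9 TPM, followed by Acot12 (33.8 TPM), Acot1 (31.6 TPM), Acot8 (11.8 TPM), Acot7 (11.8 TPM), Acot4 (6.30 TPM), Acot3 (2.37 TPM) and Acot2 (0.366 TPM). The ranges over libraries were separate between Acot13 and Acot12, between Acot7 and Acot4, and between Acot4 and Acot3. All other neighbours in this order had overlapping ranges. Acot1 exceeded Acot12 in 2 of 4 libraries, and Acot8 exceeded Acot7 in 3 of 4 libraries.

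**Figure D1:**
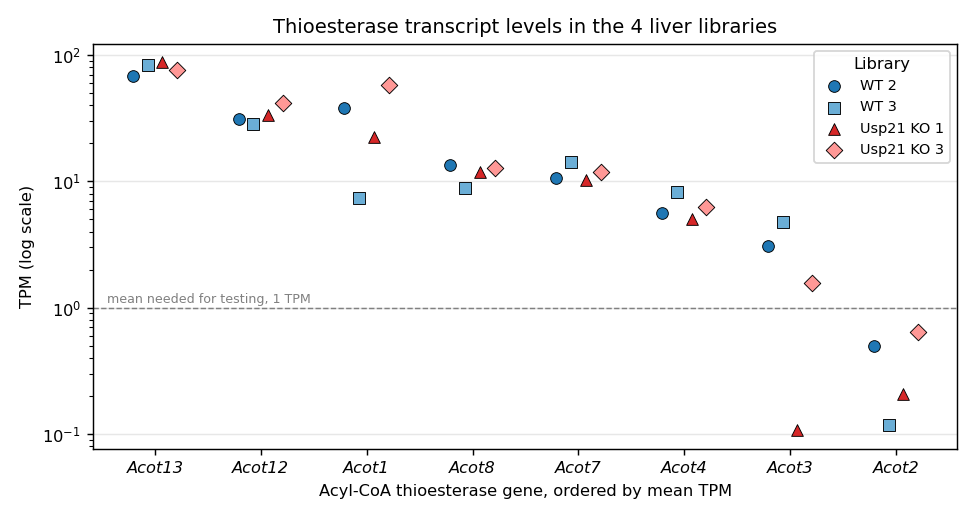
Points show the TPM (log scale) of each thioesterase gene in each of the 4 liver libraries, with circles and squares for WT and triangles and diamonds for Usp21 KO. Acot1 spreads from 7.38 to 58.4 TPM with the genotypes interleaved, and both KO points of Acot3 lie below both WT points.

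The type I genes form a cluster on the forward strand of chromosome 12 (GRCm38), from 83987861 to 84111349 for Acot1 to Acot6, and reads from sequence that these duplicated genes share can be divided between them in different ways. Acot2 lies at 83987861 to 83993873, Acot1 at 84009490 to 84018371, Acot4 at 84038379 to 84048601 and Acot3 at 84052144 to 84060402. Over the aligned coding bases, Acot1 was 95.3% identical to Acot2 (58 differences in 1236 bases), 85.0% identical to Acot3 and 76.5% identical to Acot4. Of all stretches of 31 bases in the transcripts of a gene, 22.7% of those of Acot1, 37.3% of those of Acot2, 23.1% of those of Acot3 and 8.24% of those of Acot4 were also found in a transcript of another gene. For Acot7, Acot8, Acot12 and Acot13 this share was 0% in this annotation, so their values do not depend on such a division. The coding sequences are shown at the stretch of 60 bases where Acot1 and Acot2 differ most, to give the letters by which reads of the pair can be told apart. Capitals mark bases that differ from Acot1.
Acot1: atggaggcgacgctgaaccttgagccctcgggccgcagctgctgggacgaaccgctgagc
Acot2: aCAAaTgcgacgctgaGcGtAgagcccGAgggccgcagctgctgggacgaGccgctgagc
Acot3: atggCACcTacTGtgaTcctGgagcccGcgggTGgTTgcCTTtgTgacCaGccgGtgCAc
Acot4: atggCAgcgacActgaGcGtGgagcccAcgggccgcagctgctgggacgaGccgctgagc

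The stretch holds coding bases 1 to 60 of Acot1 and Acot4, 34 to 93 of Acot3 and 124 to 183 of Acot2, with 10 differences from Acot1 in Acot2, 22 in Acot3 and 8 in Acot4. The coding sequence of Acot2 runs 123 bases, or 41 codons, upstream of the point where it aligns with the start of Acot1. ACOT2 is the mitochondrial member of the pair, and ACOT1 is cytosolic. Before the stop codon, the coding sequences are 419 codons long in Acot1, 453 in Acot2, 432 in Acot3 and 421 in Acot4.

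Acot1, which hydrolyses long-chain acyl-CoAs in the cytosol, had the largest spread within genotypes on the log2(TPM + 1) scale, whereas Acot3 had the larger ratio between its highest and lowest library. Its level was 38.2 TPM in WT replicate 2, 7.38 TPM in WT replicate 3, 22.6 TPM in KO replicate 1 and 58.4 TPM in KO replicate 3. The lowest library was a WT and the highest a KO, but the other two lay in the reverse order, and the genotypes overlapped. The mean was 22.8 ± 21.8 TPM in WT against 40.5 ± 25.3 TPM in KO liver (SD, n = 2 each). The log2 fold change was 1.05 (SE 0.79, 95% interval -0.93 to 3.02, limma adjusted p = 0.631), and leaving out WT replicate 3 gave -0.068, whereas leaving out WT replicate 2 gave 2.16. The spread within genotypes exceeded that of 98.9% of the 1883 tested genes with a mean TPM within 2-fold of that of Acot1.

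Acot2, the mitochondrial long-chain enzyme, was nearly undetected. It was at 0.499 and 0.118 TPM in WT and at 0.207 and 0.641 TPM in KO liver. The libraries took the same order as for Acot1, with which it shares 29.9% of its stretches of 31 bases, and the ratio of Acot1 to Acot2 lay between 62.3 and 108.9. In the fit with no filter on low values, the log2 fold change of Acot2 was 0.12 (SE 0.24, adjusted p = 0.873). The sum of Acot1 and Acot2, which depends less on how their shared reads were divided, was 38.7 and 7.495 TPM in WT against 22.8 and 59.0 TPM in KO liver. Acot1 made up nearly all of this sum, so the overlap between genotypes in the sum is that of Acot1 and not a separate result.

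Acot3, which acts on medium- to long-chain acyl-CoAs in peroxisomes, had the largest difference of the 8 genes in proportion to its error. It was at 3.06 TPM in WT replicate 2, 4.77 TPM in WT replicate 3, 0.107 TPM in KO replicate 1 and 1.56 TPM in KO replicate 3. Both KO livers were below both WT livers, and the KO livers differed 14.6-fold from each other. The mean was 3.91 ± 1.21 TPM in WT against 0.832 ± 1.03 TPM in KO liver (SD, n = 2 each). The log2 fold change was -1.52 (SE 0.46, 95% interval -2.67 to -0.37), with an unadjusted p of 0.0182 and an adjusted p of 0.464 by limma. The value was -0.92 without KO replicate 1, and it ranged from -2.74 to -0.62 with pseudocounts of 0.1 and 5, so its size depends on the treatment of low values.

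A second annotated gene covers the same sequence. Gm49366, a protein-coding readthrough gene (forward strand of chromosome 12, from 84038935 to 84058613), has a first exon of 33 bases inside exon 1 of Acot4, and its exons 2 and 3 of 203 and 193 bases lie inside exons of Acot3. All 399 stretches of 31 bases in its GENCODE M21 transcript, or 100%, are also present in Acot3 transcripts of that release, and the transcripts behind the deposited TPM may differ because their release is not given in the sources used here. The first 60 bases of the Gm49366 transcript are shown beside the best-matching coding bases of Acot3 (458 to 517) and Acot4 (425 to 484), because they decide whether its reads can be told from those of Acot3. Capitals mark bases that differ from Gm49366.
Gm49366: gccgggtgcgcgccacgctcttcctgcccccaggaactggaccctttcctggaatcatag
Acot3: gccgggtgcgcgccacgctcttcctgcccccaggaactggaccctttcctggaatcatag
Acot4: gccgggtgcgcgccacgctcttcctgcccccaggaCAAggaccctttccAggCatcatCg

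The stretch of Acot3 had 0 differences from Gm49366, and that of Acot4 had 6. Gm49366 was at 2.73 and 2.69 TPM in the WT livers and was listed at 0 in both KO livers (limma adjusted p = 0.185, unadjusted p = 4.63e-04), and no fold is given against a group at 0. The sum of Acot3 and Gm49366 was 5.79 TPM in WT replicate 2, 7.46 TPM in WT replicate 3, 0.107 TPM in KO replicate 1 and 1.56 TPM in KO replicate 3. Both KO livers were below both WT livers in the sum, which had to be so because each gene alone was lower in both KO livers. The KO to WT ratio of the means was 0.126 for the sum and 0.213 for Acot3 alone, and the lower ratio of the sum follows from Gm49366 being listed at 0 in KO liver. TPM is set per transcript length and the Gm49366 transcript is short, so this sum still depends on how shared reads were divided between the genes. The sum was chosen after the values were seen and was not tested.

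**Figure D2:**
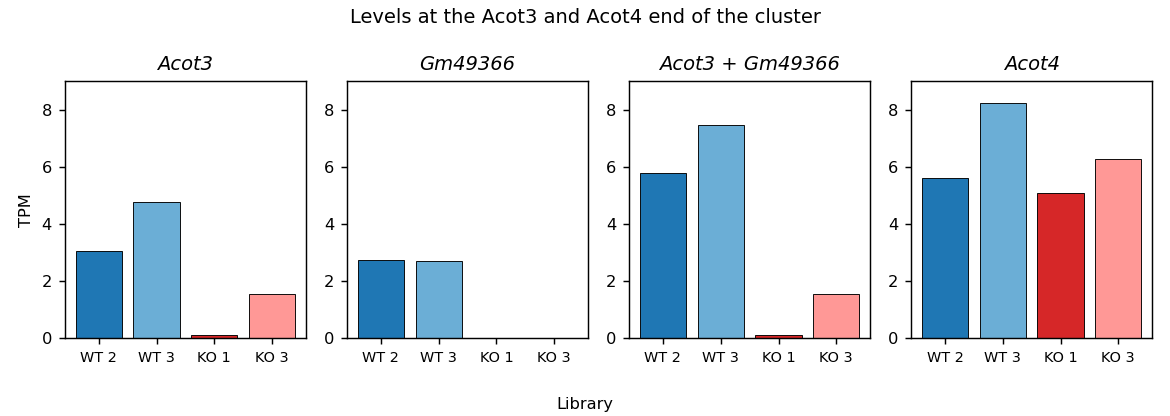
Bars show the TPM of Acot3, of Gm49366, of their sum and of Acot4 in the 4 liver libraries, with an axis that starts at 0. Gm49366 is listed at 0 in both KO libraries and the sum is at 5.79 and 7.46 TPM in WT against 0.107 and 1.56 TPM in KO, while Acot4 lies between 5.08 and 8.25 TPM.

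Acot4, a peroxisomal enzyme that hydrolyses succinyl-CoA and other dicarboxylyl-CoAs, did not follow Acot3. It was at 5.60 TPM in WT replicate 2, 8.25 TPM in WT replicate 3, 5.08 TPM in KO replicate 1 and 6.27 TPM in KO replicate 3. The genotypes overlapped. The log2 fold change was -0.23 (SE 0.27, 95% interval -0.90 to 0.43, limma adjusted p = 0.753). Whether the change of Acot3 differed from that of Acot4 was not tested. Of the remaining genes of the cluster, Acot5 was listed at 0 in all libraries and Acot6 reached at most 0.223 TPM.

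Among the 11 protein-coding genes within 250 kb of the cluster other than Acot1 to Acot6, 5 were tested. Of these 5, 4 were higher and 1 lower in KO liver, beside 66.7% higher over all tested genes. Apart from Gm49366, Zfp410, a zinc finger protein gene, was the 1 neighbour that differed by at least 2-fold, with 3.65 and 5.79 TPM in WT against 13.7 and 9.10 TPM in KO liver (log2 fold change 1.12, SE 0.31, limma adjusted p = 0.464).

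The type II genes varied less between libraries. Acot12, a cytosolic enzyme of liver that hydrolyses acetyl-CoA, lies on the forward strand of chromosome 13, from 91741512 to 91786148, and has 556 codons. It was at 31.1 TPM in WT replicate 2, 28.7 TPM in WT replicate 3, 33.8 TPM in KO replicate 1 and 41.6 TPM in KO replicate 3. Both KO livers were above both WT livers, by 1.26-fold in the ratio of the means. The log2 fold change was 0.32 (SE 0.19, 95% interval -0.15 to 0.79, limma adjusted p = 0.552). It was above 0 in all 13 alternatives that gave a value, between 0.17 and 0.47, but many of these could not reverse it. Leaving out 1 library cannot reverse a gene with separate genotypes, and changes of filter, moderation or trend leave its value as it is. With equal upper quartiles it was 0.19. In that setting 1 tested member instead of 2 had separate genotypes, and the member that lost them was Acot12. Whether both KO livers lay above both WT livers thus depended on the scaling.

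Acot13, a short mitochondria-associated enzyme of 140 codons also known as Them2, is encoded on chromosome 13 (reverse strand, 24817948 to 24831540). It was at 67.8 and 83.7 TPM in WT and at 87.6 and 76.4 TPM in KO liver. Both genotypes covered nearly the same range, with a highest-to-lowest ratio of 1.29 over all libraries. Its log2 fold change was 0.12 (SE 0.19, 95% interval -0.35 to 0.59, limma adjusted p = 0.828), and it was -0.016 after scaling to equal upper quartiles.

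Acot7, a cytosolic long-chain enzyme best known from brain (384 codons), lies on the forward strand of chromosome 4, from 152178134 to 152271855. It was at 10.6 and 14.4 TPM in WT and at 10.2 and 11.9 TPM in KO liver, and the genotypes overlapped (log2 fold change -0.15, SE 0.23, 95% interval -0.73 to 0.43, limma adjusted p = 0.822). Neuron markers summed to at most 2.96 TPM in these libraries.

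Acot8, a peroxisomal enzyme of broad substrate range (320 codons), is encoded on chromosome 2 (reverse strand, 164792765 to 164804882). It was at 13.6 and 8.91 TPM in WT and at 11.9 and 12.8 TPM in KO liver. Both KO livers lay between the WT livers. The log2 fold change was 0.15 (SE 0.25, 95% interval -0.48 to 0.78, limma adjusted p = 0.832), and its sign was reversed without WT replicate 3 (-0.12).

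**Figure D3:**
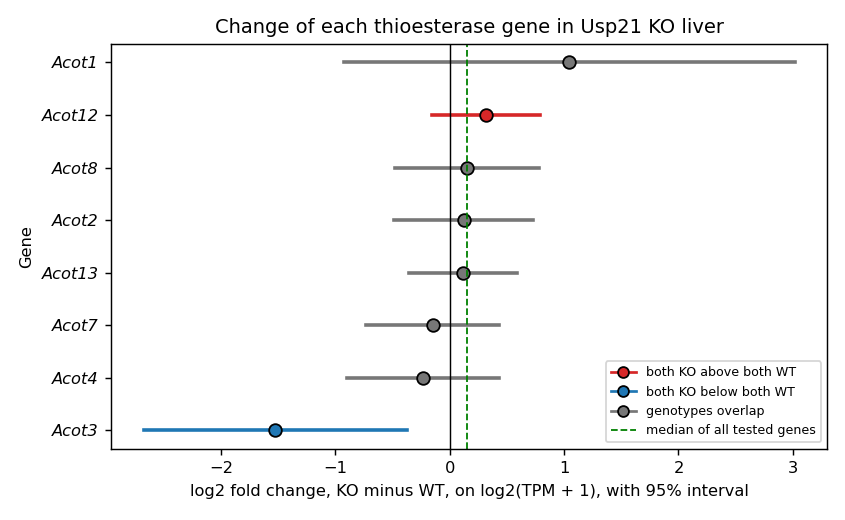
Points show the log2 fold change (KO minus WT, on log2(TPM + 1)) of each thioesterase gene and lines its 95% interval from limma (Acot2 from the fit with no filter), with red and blue for genes whose genotypes do not overlap and a dashed line at the median of all 9581 tested genes (0.15). The interval of Acot3 (-2.67 to -0.37) is the only one that does not cross 0, before adjustment for the number of genes.

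Counts over the family are set here beside those over all tested genes. Of the 7 tested members, 4 were higher and 3 lower in KO liver, whereas 66.7% of all tested genes were higher. The genotypes did not overlap for 2 members, Acot12 and Acot3, compared with 45.3% of all tested genes. A change of at least 2-fold was measured for 2 members, Acot1 upward and Acot3 downward, compared with 3.68% of all tested genes, and 1 member (Acot3) had an unadjusted p under 0.05, compared with 10.5%. By limma, 0 members had an adjusted p under 0.05, compared with 0.0835% of all tested genes, and neither of the 2 members with reads in the count-based table (Acot4 and Acot8) passed by edgeR or DESeq2. The median log2 fold change was 0.12 for the tested members and 0.15 for all tested genes.

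The family's transcript pool was set by a few members. The summed level of the 8 genes was 170.4 and 156.2 TPM in WT against 171.5 and 209.6 TPM in KO liver. Both KO livers were above both WT livers, by 1.17-fold in the ratio of the means, but KO replicate 1 exceeded WT replicate 2 only narrowly. The log2 ratio of this sum was 0.22 with all libraries, 0.095 with equal upper quartiles and 0.07 without KO replicate 3. Acot13 contributed 39.8% and 53.6% of the sum in WT and 51.1% and 36.4% in KO liver, and Acot12 contributed between 18.3% and 19.9%. The share of Acot1 ranged from 4.72% in WT replicate 3 to 27.9% in KO replicate 3. Without Acot1, the sum of the other 7 genes was 132.2 and 148.8 TPM in WT against 148.9 and 151.2 TPM in KO liver, and the 4 type II genes alone summed to 123.1 and 135.7 TPM in WT against 143.5 and 142.7 TPM in KO liver. These sums weigh transcripts, and the enzymes they encode differ in substrate and compartment.

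**Figure D4:**
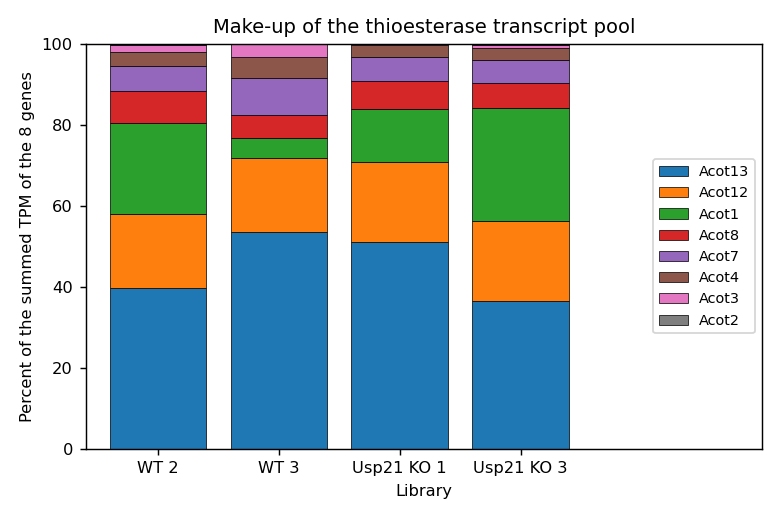
Stacked bars show the percent of the summed TPM of the 8 thioesterase genes contributed by each gene in each library. Acot12 holds an almost constant share (18.3% to 19.9%), and the share of Acot1 varies from 4.72% to 27.9%.

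The library pattern of Acot1 was compared with genes of related pathways, after its values were seen and with no test. Acot1 was lowest in WT replicate 3 and highest in KO replicate 3. Among 42 tested PPAR-alpha targets (Ppara included), 15 genes (35.7%) were also lowest and highest in these libraries, compared with 846 of 9581 tested genes (8.83%), and these points come from the same 4 mice. The complete order of the 4 libraries matched Acot1 in 4 of the 42 genes, namely Angptl4 (a lipoprotein lipase inhibitor) and Eci1, Hsd17b4 and Acadm (enzymes of beta-oxidation), or 9.52% compared with 3% of all tested genes. In the other lists, the lowest and highest libraries were shared by 4 of 15 genes (26.7%) that handle coenzyme A, by 2 of 7 other thioesterase relatives (28.6%) and by 2 of 13 acyl-CoA synthetases (15.4%), and the complete order by 2 of 15 coenzyme A genes (13.3%, Coasy and Slc25a17). Relative to its own mean over the libraries, Acot1 ranged from 0.233 in WT replicate 3 to 1.85 in KO replicate 3, Angptl4 from 0.599 to 1.99 and Acadm from 0.705 to 1.26. Cyp4a10 and Cyp4a14, fatty acid omega-hydroxylases of the same list, had another pattern, with 508.0 and 356.2 TPM in WT replicate 2 and at most 91.3 and 21.7 TPM in the other libraries.

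**Figure D5:**
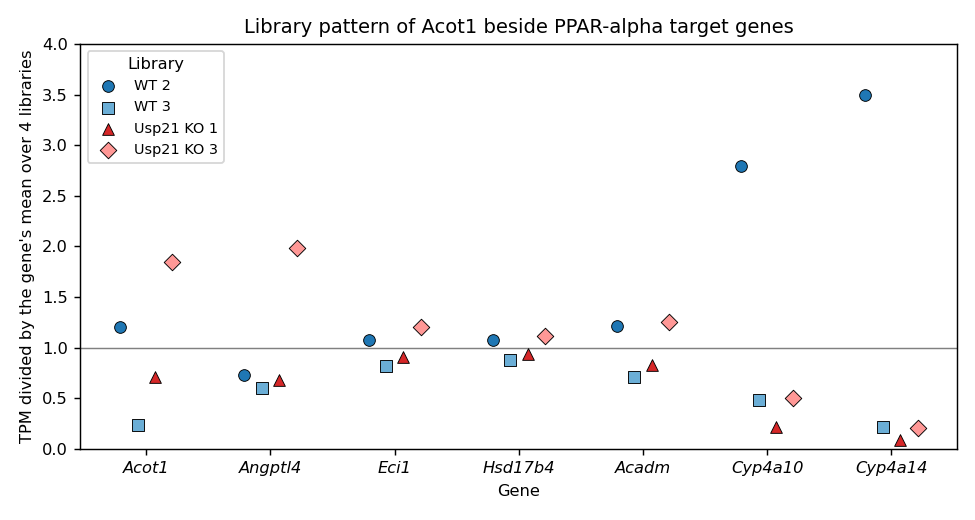
Points show the TPM of each gene divided by its own mean over the 4 libraries, for Acot1, for the 4 PPAR-alpha targets with the same order of libraries, and for Cyp4a10 and Cyp4a14. Acot1 and the 4 targets are lowest in WT replicate 3 (square) and highest in KO replicate 3 (diamond). The 4 were picked for this order out of 42 tested targets, so their likeness to Acot1 was fixed by the choice. Cyp4a10 and Cyp4a14 are highest in WT replicate 2 (2.79 and 3.50 times their mean).

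Between genotypes, 31 of the 42 PPAR-alpha targets were higher and 11 lower in KO liver, with a median log2 fold change of 0.27, beside 66.7% higher and a median of 0.15 over all tested genes. Of these, 9 had an unadjusted p under 0.05, beside 10.5% of all tested genes, and 0 passed the adjusted threshold by limma. The lowest p-values upward were those of Plin5 (9.92 and 8.20 TPM in WT, 22.2 and 18.1 TPM in KO) and Plin2 (118.9 and 88.7 TPM in WT, 178.5 and 270.6 TPM in KO), both lipid droplet proteins. Changes of at least 2-fold with separate genotypes were also measured for Crot, the peroxisomal carnitine octanoyltransferase (186.0 and 101.2 TPM in WT, 262.0 and 293.5 TPM in KO), for Pdk4 (0.457 and 0.423 TPM in WT, 1.25 and 2.69 TPM in KO) and, downward, for Cyp4a14. Downward, the lowest p-values were those of Acaa1a, a peroxisomal thiolase (75.6 and 82.5 TPM in WT, 53.3 and 61.5 TPM in KO, log2 fold change -0.46), and Cyp4a10 (log2 fold change -1.80, SE 0.84, with overlapping genotypes). Ppara itself was at 11.6 and 12.8 TPM in WT and at 13.2 and 13.9 TPM in KO liver.

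Acyl-CoA synthetases, which catalyse the opposite reaction, were divided between directions. Of 13 tested genes, 6 were higher and 7 lower in KO liver, beside 66.7% higher over all tested genes. Their median log2 fold change was -0.02, and 1 gene had an unadjusted p under 0.05, beside 10.5% of all tested genes. This gene was Slc27a2, a very long-chain synthetase, with 387.4 and 333.7 TPM in WT against 479.6 and 492.4 TPM in KO liver (log2 fold change 0.43, SE 0.17, limma adjusted p = 0.473). Acsl1, the main long-chain synthetase of liver, was at 214.2 and 159.6 TPM in WT and at 226.6 and 267.0 TPM in KO liver (adjusted p = 0.516). Downward, the lowest p-values were those of Slc27a4 (log2 fold change -0.26) and Acss2, the cytosolic acetyl-CoA synthetase (-0.36), both with adjusted p above 0.6.

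Genes that make, degrade or carry coenzyme A, the second product of the thioesterases, numbered 15 tested, with 11 higher and 4 lower in KO liver and a median log2 fold change of 0.09, close to the share of all tested genes that were higher (66.7%). The 2 genes with an unadjusted p under 0.05, beside 10.5% of all tested genes, were both higher in both KO livers. Slc25a42, a mitochondrial carrier of coenzyme A, was at 8.23 and 8.06 TPM in WT and at 20.4 and 13.8 TPM in KO liver (log2 fold change 0.96, SE 0.25, limma adjusted p = 0.464). Ppcdc, an enzyme of coenzyme A synthesis, was at 3.81 and 3.56 TPM in WT and at 5.39 and 11.8 TPM in KO liver (log2 fold change 0.95, SE 0.37, adjusted p = 0.472). Downward, the lowest p-values were those of Vnn3, a vanin gene (-0.48, adjusted p = 0.479), and Pank1, a pantothenate kinase (-0.14, adjusted p = 0.751).

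Of 7 other tested thioesterase or acyltransferase relatives, 4 were higher and 3 lower in KO liver, none by 2-fold. Over all tested genes, 66.7% were higher and 3.68% changed at least 2-fold. Baat, which conjugates bile acids to amino acids, was steady at 105.4 to 121.2 TPM. Acnat2, an amino acid N-acyltransferase, was at 8.41 and 20.3 TPM in WT and at 2.58 and 14.4 TPM in KO liver (log2 fold change -0.93, SE 0.75, limma adjusted p = 0.648), so its genotypes overlapped, and its close copy Acnat1 was between 7.64 and 15.7 TPM. Acnat1 and Acnat2 share 646 stretches of 31 bases, so their separate values carry the same uncertainty as those of Acot1 and Acot2. Acot9 (0.871 to 1.70 TPM), Acot11 (0.258 to 2.06 TPM), Them4 (6.19 to 8.41 TPM) and Them6 (0.628 to 2.16 TPM) had log2 fold changes of 0.30, -0.56, 0.23 and -0.50, with adjusted p between 0.579 and 0.705.

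PPAR-alpha binds a direct repeat of the hexamer AGGTCA with 1 free base between the copies (DR1), and the 250 bases upstream of the RefSeq start were searched for it on both strands (GRCm38.p6). Such a window was given for 7 of the 8 members and not for Acot13. Acot12 held a match with 1 mismatch of 12 letters, which 0.484% of 32851 promoters held at up to 1 mismatch, and Acot4 held a match with 2 mismatches, which 3.24% held at up to 2. The promoter of Acot1 held no match with up to 3 mismatches. The best matches of the other members had 3 mismatches in Acot2, 4 in Acot1 and Acot3, and 5 in Acot7 and Acot8. The matches of Acot12 and Acot4, which had the fewest mismatches, are shown with their flanks. Any relation of the matches to the levels was not tested. Capitals mark the match, which reads on the reverse strand, and the sequences are chr13:91741371-91741463 and chr12:84038326-84038378, forward strand.
Acot12: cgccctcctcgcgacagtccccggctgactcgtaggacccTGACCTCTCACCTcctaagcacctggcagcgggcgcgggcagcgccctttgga
Acot4: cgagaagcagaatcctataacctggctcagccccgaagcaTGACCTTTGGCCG

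In Acot12 the match begins 110 bases and in Acot4 13 bases upstream of the start. No binding was measured in these libraries, and a match of letters is a description of the sequence only.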

How the data were processed

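Liver RNA of 2 WT and 2 Usp21 KO mice was measured by RNA-seq, and libraries were grouped by their labels. The authors estimated abundance with salmon (mm10) and deposited TPM per gene, and a second deposited table held the same values as log2(TPM + 1). The authors also counted aligned reads with HTSeq and deposited TMM-normalized CPM, a signal in counts scaled to library size. Software versions, the annotation release and the strand setting are not given in the sources used here. All CPM values were whole multiples of 1 read (100% within a tolerance of 0.02 reads), which gave 102898 to 148164 recovered reads per library. That table lists 428 of 686 genes above 100 TPM in every library at 0, so TPM was used for the main values. TPM keeps no read depth, so no counting interval is given.

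The 9581 genes that averaged 1 TPM or more were tested on log2(TPM + 1) with limma 3.58.1 (R 4.3.3, lmFit and eBayes with a trend), two-sided, with Benjamini-Hochberg adjustment over all tested genes. Because of the pseudocount of 1, fold changes of low genes are understated. Acot2 was taken from the fit with no filter. As alternatives, the pseudocount was set to 0.1 or 5, the filter was dropped or raised to a mean of 5 TPM, and the values were recomputed with equal upper quartiles or equal protein-coding totals, no moderation, no trend, Acot1 to Acot6 summed to 1 row, TMM-normalized CPM, edgeR 4.0.16 and DESeq2 1.42.0 on recovered reads, and each library left out. Sequences and coordinates came from GENCODE M21 (GRCm38) and RefSeq promoters (GRCm38.p6), and 35126 gene identifiers of the TPM table were found in GENCODE M21. The scripts were tested on simulated data. All 8 members were described, all tested relatives in the list of other thioesterase genes, and from each pathway list the 2 genes with the lowest p in each direction and those changed at least 2-fold with separate genotypes. The neighbours of the cluster changed at least 2-fold were also named, and other named genes were chosen after their values were seen. One item of the PPAR-alpha list is not reported here and was left out of its counts. The members and lists were chosen with earlier results of these data known. Nothing in the labels says more about the mice than their genotype and number, so p-values measure the spread between these libraries.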

Additional observations from a re-analysis of the deposited data

How the results depend on the processing

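No paired analysis was possible because the labels give no litter or other pairing of the mice. Of the members' values under the alternatives, 85 kept their direction and their side of the threshold and 9 were reversed. Changes of filter, moderation or trend leave a member's log2 fold change as it is, so these settings could not reverse it. Without WT replicate 3, Acot1 (-0.068, range over left-out libraries to 2.16), Acot4 (0.012, range from -0.48), Acot7 (0.055, range from -0.36) and Acot8 (-0.12, range to 0.43) reversed. Acot13 reversed without WT replicate 2 (-0.033, range to 0.27) and under upper quartile scaling (-0.016), and Acot8 reversed with DESeq2 (-0.089), edgeR (-0.088) and CPM (-0.084), where it rests on 1 to 3 reads. Each other cause was not tested. Acot3 was not reversed in any of the 11 alternatives that gave a value, but leaving out 1 library cannot reverse a gene with separate genotypes.

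Over leave-one-out fits, in which a lone library is assumed to vary like the others, genes with an adjusted p under 0.05 numbered 0 to 7 (8 with all libraries), genes changed at least 2-fold 482 to 708 (353 with all), members with separate genotypes 3 to 6, members changed at least 2-fold 1 to 2, higher members 3 to 4, and the members' median was -0.033 to 0.10. A lone library separates from 2 others more readily than 2 libraries from 2. The share of all tested genes with separate genotypes was not counted in these fits, so the 3 to 6 members have no such comparison. Log2 ratios of sums ranged from -0.021 to 2.45 for Acot1 and Acot2. For Acot3 and Gm49366 they ranged from -5.96 (without KO replicate 3) to -2.09 (without KO replicate 1). The settings that leave out a library for the sum of Acot3 and Gm49366 were added after seeing the data.

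Genes with an adjusted p under 0.05 numbered 4 with no filter, 0 with no moderation, 1 with CPM, 1 with DESeq2 and 12 with edgeR. Genes changed at least 2-fold numbered 820 and 115 with pseudocounts of 0.1 and 5, 203 at a mean of at least 5 TPM, 3134 with CPM, 2915 with edgeR and 3018 with DESeq2. In the CPM-based tests 0 members were higher, 1 had separate genotypes and 1 changed at least 2-fold (Acot4), because only Acot4 and Acot8 had reads, with medians of -1.89 (CPM), -1.92 (edgeR) and -1.60 (DESeq2) and a log2 ratio of the summed members of -0.80 (CPM) and -0.81 (edgeR and DESeq2). Upper quartile scaling gave 1 member with separate genotypes, 1 changed at least 2-fold and a median of -0.016, and moved the median of all genes from 0.15 to 0.03 and the share of higher genes from 66.7% to 53.9%. A mean of at least 5 TPM, which leaves out Acot3, gave 1 and 1. With Acot1 to Acot6 summed, 1 member had separate genotypes and 0 changed at least 2-fold, and with a pseudocount of 5, 0 changed at least 2-fold. TPM keeps no read depth, so the precision of Acot2 and Acot3, the lowest members, is unknown.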

Other observations

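In the TMM-normalized CPM table, 6 of the 8 thioesterase genes were at 0 in all 4 libraries. Acot4 had 2 and 1 recovered reads in WT and 0 in both KO libraries, and Acot8 had 1 and 3 reads in WT and 1 and 3 in KO. This table also lists 428 of the 686 genes above 100 TPM in every library at 0, so these zeros set no limit on the levels of the thioesterase genes. Over Acot3, Acot4, Acot8 and Acot12, genes annotated on the opposite strand held more reads than the member. Only opposite-strand genes with reads were considered, and none of these overlapped Acot1, Acot2, Acot7 or Acot13. 4732463B04Rik, an antisense gene that overlaps Acot3 and Acot4, had 34 and 24 reads in WT and 18 and 21 in KO, or 261.0 and 220.2 CPM in WT and 120.2 and 193.7 CPM in KO. Snx21, which overlaps Acot8, had 13 and 7 reads in WT and 16 and 9 in KO, and 4833422C13Rik, antisense to Acot12, had 16 and 3 reads in WT and 7 and 9 in KO. The strand setting of the counting is not given in the sources used here, and its part in these values was not tested.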
